A study of Homo sapiens with 8 samples.

Results

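AKR1C1, an aldo-keto reductase, was lower with either form of cyclin D1 than with empty vector in JVM13 cells. The genes examined here were AKR1C1, its relatives AKR1C2, AKR1C3 and AKR1B1, the transcription factor gene NFE2L2, which encodes NRF2, and 5 antioxidant targets of NRF2, namely NQO1, HMOX1, GCLM, TXNRD1 and SRXN1. The question was whether the fall of AKR1C1 extended to other genes of the NRF2 system. The set was chosen by the fall of AKR1C1 in earlier results of these data, and the other genes for their place in the same family or pathway. All probe sets annotated to exactly 1 of these 10 genes were taken, which gave 9 of 18231 measured genes, read by 22 of 48854 probe sets. AKR1C2 had 5 probe sets, HMOX1 and TXNRD1 had 3 each, AKR1C1, AKR1C3, NFE2L2, NQO1 and GCLM had 2 each, and SRXN1 had 1. AKR1B1 was not analysed here.

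JVM13, a line grown from a human chronic B-cell leukaemia, had its RNA measured on Affymetrix expression arrays. Inducible vectors in these cells carried T286A cyclin D1, a stabilised mutant (n = 3 arrays), wild-type cyclin D1 (n = 3) or no insert (empty vector, titled control, n = 2). All 3 groups, controls included, received doxycycline at 0.1 µg/mL. The labels do not say how long induction lasted, whether replicates were separate cultures or whether a vector stands for 1 clone or several, so p-values measure the spread between these arrays, which may be technical. Values are log2 expression made by the authors with robust multi-array averaging (RMA), which evens out the arrays, so each difference is relative to the other genes, and fewer cells making a transcript cannot be told apart from less of it per cell.

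CCND1, the cyclin D1 gene, checked which arrays carried a construct, through 1 probe set. Its brightest probe set, 11721256_a_at, lay between 10.86 and 11.25 on the T286A arrays, between 10.98 and 11.13 on the wild-type arrays, and at 5.25 and 4.98 on the empty vector arrays. Its means, 11.02 with T286A and 11.06 with wild type, cannot tell these 2 labels apart. The other CCND1 probe sets were dim and overlapped between groups. They differed from empty vector by -0.09 to 0.04 with T286A and by -0.03 to 0.10 with wild type. Array medians ran from 5.47 to 5.62. Wild-type replicate 2 stood apart, with a median distance of 0.0942 from the probe set medians, against 0.0673 to 0.0802 on the other arrays. Differences of AKR1C1 and NQO1 that rest on it are also given without it. Of 8 listed B-cell markers, 7 were measured, at 7.59 to 13.4 on all arrays, whereas 7 T and NK cell markers stayed between 3.99 and 5.22 and 5 epithelial and liver markers between 3.92 and 5.52. Of 6 myeloid markers, 1, the integrin gene ITGAM, lay above the median of all genes. With wild type, ITGAM differed from empty vector by -0.42 (limma adjusted p = 0.318) and the B-cell marker CD22 by -0.40 (0.0498), and their part in the results was not tested.

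NRF2 is held at a low level by KEAP1, which presents it to a CUL3 ubiquitin ligase. Oxidants and electrophiles free NRF2, which then pairs with a small MAF protein and binds antioxidant response elements in genes for glutathione synthesis, thioredoxin reduction, quinone reduction and haem breakdown. BACH1 competes for the same elements, above all at HMOX1. The AKR1C genes are neighbours on chromosome 10 and are established NRF2 targets in human cells. AKR1C1 inactivates progesterone, AKR1C2 inactivates dihydrotestosterone, and AKR1C3 forms testosterone and prostaglandin F. Cyclin D1 is not normally made by mature B cells and is switched on in mantle cell lymphoma.

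AKR1C1 and AKR1C2 are near copies, so a probe set can read both transcripts. Their promoters are shown for their own likeness, which does not tell what a probe set reads. No transcript or probe sequences were compared. RefSeq promoter windows (250 bases before to 50 after the start site, GRCh38.p14) were found for 9 of the 10 genes, 13 windows in all. The pair comes from the plus strand at chr10:4963165-4963464 and from the minus strand at chr10:5003808-5004107. Capitals mark bases that differ between them. Over 296 aligned columns, 288 were identical (97.3%), 4 were substitutions and 4 were bases present in AKR1C1 alone. The 2 AKR1C3 windows were 76.6% and 74.8% identical to that of AKR1C1.
AKR1C1: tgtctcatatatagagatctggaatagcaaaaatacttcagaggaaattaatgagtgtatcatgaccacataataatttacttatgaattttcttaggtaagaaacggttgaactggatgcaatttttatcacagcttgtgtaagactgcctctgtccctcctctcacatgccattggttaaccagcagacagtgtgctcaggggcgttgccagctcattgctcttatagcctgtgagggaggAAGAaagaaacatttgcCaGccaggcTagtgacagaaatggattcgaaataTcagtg
AKR1C2: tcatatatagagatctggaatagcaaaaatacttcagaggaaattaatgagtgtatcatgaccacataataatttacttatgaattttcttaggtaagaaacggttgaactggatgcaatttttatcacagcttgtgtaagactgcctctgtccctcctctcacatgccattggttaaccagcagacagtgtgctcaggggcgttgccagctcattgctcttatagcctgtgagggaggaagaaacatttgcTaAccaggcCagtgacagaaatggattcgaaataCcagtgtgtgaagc

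The core of the antioxidant response element, TGACNNNGC, was searched on both strands. It occurred in 13.3% of all 35116 windows, and in 3 of the 13 windows of these genes, 1 of GCLM and 2 of TXNRD1. These 2 genes are shown because they carry the element close to the start site and differed little between the groups. GCLM lies on the minus strand at chr1:93909381-93909680 and the shown TXNRD1 window on the plus strand at chr12:104286782-104287081. Capitals mark the element, which runs on the opposite strand in both and reads TGACTAAGC in GCLM and TGACAAAGC in TXNRD1. None of the 13 windows held the AP-1 motif TGACTCA, which can overlap the element and which occurred in 4.95% of all windows. The windows of AKR1C1, AKR1C2, AKR1C3, AKR1B1, NFE2L2, NQO1 and SRXN1 did not hold these letters, which says nothing of elements further away.
GCLM: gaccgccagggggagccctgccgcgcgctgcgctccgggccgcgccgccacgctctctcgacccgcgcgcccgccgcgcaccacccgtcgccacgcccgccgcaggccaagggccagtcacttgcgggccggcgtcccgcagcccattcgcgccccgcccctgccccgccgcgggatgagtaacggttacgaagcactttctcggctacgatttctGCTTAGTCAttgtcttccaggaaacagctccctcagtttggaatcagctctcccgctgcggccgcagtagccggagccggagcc
TXNRD1: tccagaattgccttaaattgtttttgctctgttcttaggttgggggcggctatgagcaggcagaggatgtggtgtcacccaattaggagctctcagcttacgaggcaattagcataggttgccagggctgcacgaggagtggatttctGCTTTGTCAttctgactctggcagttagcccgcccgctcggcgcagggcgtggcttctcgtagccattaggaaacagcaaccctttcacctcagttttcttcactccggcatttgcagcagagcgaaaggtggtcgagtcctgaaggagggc

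AKR1C1 was lower on every array with cyclin D1 than on either empty vector array. Since it was chosen for this fall, its differences from empty vector are a description and carry no test. Its brighter probe set, 11719172_x_at, read 5.63, 5.32 and 5.52 on the T286A arrays, 5.06, 5.32 and 4.96 on the wild-type arrays, and 6.37 and 6.75 on the empty vector arrays. Here T286A and wild type overlapped, since wild-type replicate 2 was the highest of its group. The second probe set, 11719171_a_at, read 5.62, 5.32 and 5.68 with T286A, 5.26, 4.65 and 5.05 with wild type, and 6.18 and 6.17 with empty vector. On this probe set the same wild-type replicate was the lowest, so the probe sets disagreed about that array.

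The difference between wild type and empty vector was -1.44 ± 0.15 (log2, SE) for 11719172_x_at, or 2.72-fold lower, and -1.19 ± 0.17 for 11719171_a_at, or 2.29-fold lower. T286A minus empty vector was -1.07 ± 0.15, 2.10-fold lower, and -0.64 ± 0.17, 1.56-fold lower. Without wild-type replicate 2 the wild-type differences were -1.55 and -1.03. The wild-type arrays, at 4.65 to 5.32 over both probe sets, lay within the range of the epithelial and liver markers (3.92 to 5.52), so AKR1C1 is not shown to be above background there. Both comparisons use the same 2 empty vector arrays.

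A further probe set, 11754189_s_at, names both AKR1C1 and AKR1C2. It is no member by the rule and is shown after its values were seen, because it separated all 3 groups. It read 6.93, 6.77 and 6.99 with T286A, 5.98, 6.24 and 6.08 with wild type, and 7.77 and 7.97 with empty vector. T286A minus empty vector was -0.97 ± 0.11 (log2, SE), or 1.96-fold lower, and wild type minus empty vector was -1.77 ± 0.11, or 3.41-fold lower. Which of the transcripts this probe set read cannot be told from the table.

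The 5 probe sets annotated to AKR1C2 alone lay low on the array and gave no such pattern. The brightest, 11761114_x_at, read 4.68, 4.66 and 4.70 with T286A, 4.88, 4.79 and 4.93 with wild type, and 4.75 and 4.65 with empty vector. Wild type was above empty vector here, by 0.16 ± 0.077 (log2, SE), in the direction opposite to AKR1C1. The means of the other 4 over all arrays were 3.81 to 4.23, between the 0.743 and the 16.9 percentile of all probe sets, and their differences from empty vector lay between -0.04 and 0.13 with wild type and between -0.10 and 0.12 with T286A.

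The AKR1C3 probe sets were also dim. The probe set 11715711_a_at read 4.40, 4.19 and 4.38 with T286A, 4.48, 4.50 and 4.36 with wild type, and 4.30 and 4.74 with empty vector. The empty vector arrays spanned nearly all the other values, and the differences were -0.20 ± 0.13 for T286A and -0.07 ± 0.13 for wild type (log2, SE). Leaving out either empty vector array moved them to between -0.42 and 0.02 for T286A and between -0.29 and 0.15 for wild type. The other, 11761156_at, stayed between 3.78 and 4.08 on all arrays. The lowest value of any probe set on these arrays was 3.41, so a lower level of AKR1C2 or AKR1C3 had little room to be read.

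**Figure D1:**
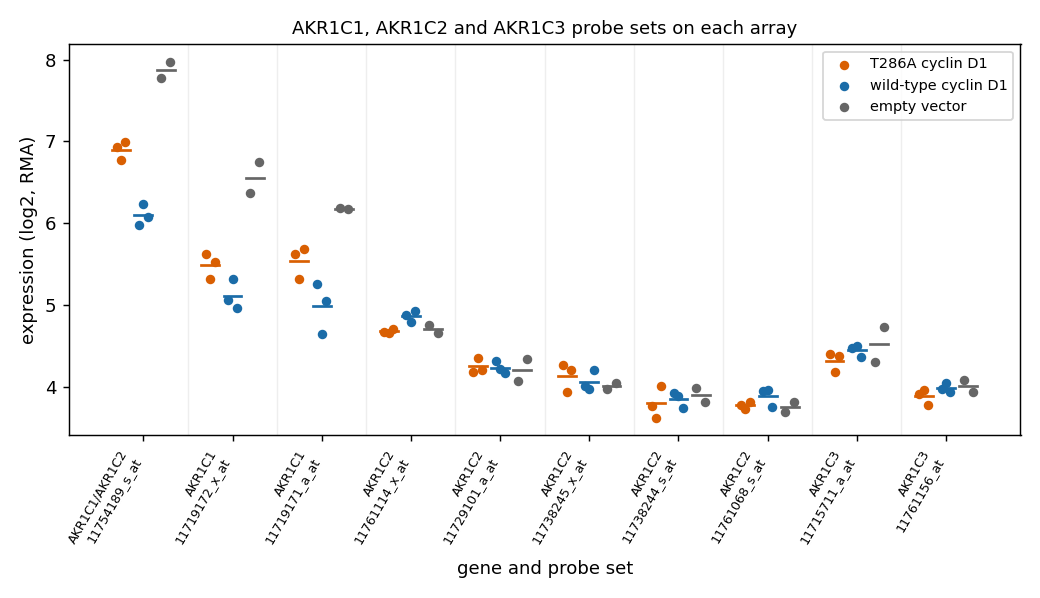
Expression (log2, RMA) of the AKR1C probe sets on each array, with points for arrays and bars for group means. The AKR1C1 probe sets and the shared AKR1C1/AKR1C2 probe set lie lower with T286A and with wild-type cyclin D1 than with empty vector, while the AKR1C2 and AKR1C3 probe sets stay between 3.62 and 4.93.

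No fall was called for NFE2L2 or the 5 antioxidant targets, the 6 genes tested against empty vector. Across all 48854 probe sets limma called 0.798% for wild type against empty vector and 0.127% for T286A against empty vector (Benjamini-Hochberg adjusted p under 0.05). Of the 13 probe sets of NFE2L2, NQO1, HMOX1, GCLM, TXNRD1 and SRXN1, 0 were called in either comparison by limma. Before adjustment, limma's p was under 0.05 for 1 higher and 1 lower probe set with wild type, and for 1 lower probe set with T286A. In a fit at 1 probe set a gene, the shares of all genes were 6.08% higher and 7.42% lower with wild type. With T286A they were 5.95% higher and 6.15% lower. The median difference of the 13 was 0.04 with T286A, against 0.00094 over all probe sets, and -0.03 with wild type, against 0.0039 over all probe sets. The members of 1 gene share their transcript and are not independent of each other.

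These 13 differences were also small. With wild type they ran from -0.33 to 0.26, and the lowest bound of any 95% interval was -0.62. With T286A they ran from -0.25 to 0.20, with a lowest bound of -0.67. With wild type, 1 probe set was above and 4 were below both empty vector arrays without overlap, 5 of 13 against 28.2% of all probe sets (14.2% above and 13.9% below). With T286A the counts were 3 above and 3 below, 6 of 13 against 29.8% (14.7% above and 15.1% below).

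No difference was called for NFE2L2 itself. The probe set 11743380_s_at read 10.85, 10.68 and 10.76 with T286A, 10.87, 10.67 and 10.60 with wild type, and 10.79 and 10.69 with empty vector. The groups overlapped, with a difference of 0.02 ± 0.10 (log2, SE; 95% interval -0.20 to 0.25) for T286A and -0.03 ± 0.10 (-0.26 to 0.20) for wild type. The second probe set, 11739057_a_at, differed by 0.09 and 0.11 (log2, limma adjusted p = 0.837 for T286A and 0.742 for wild type). NRF2 is regulated mainly through the stability of its protein, which these arrays did not measure.

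NQO1, a quinone reductase and a widely used readout of NRF2 activity, had the most negative difference of the targets with wild type. The probe set 11717567_a_at read 9.04, 8.99 and 9.01 with T286A, 9.09, 8.97 and 9.16 with wild type, and 9.23 and 9.17 with empty vector. Both constructs were below both controls, by -0.19 ± 0.081 for T286A and -0.13 ± 0.081 for wild type (limma adjusted p = 0.473 and 0.614). The dimmer probe set 11717568_s_at read 7.81, 7.68 and 7.91 with T286A, 7.70, 7.28 and 7.57 with wild type, and 7.85 and 7.86 with empty vector. Its differences were -0.05 ± 0.13 with T286A and -0.33 ± 0.13 with wild type (limma adjusted p = 0.943 and 0.356). Without wild-type replicate 2, the lowest of its group on both probe sets, the wild-type differences were -0.078 for 11717567_a_at and -0.22 for 11717568_s_at.

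HMOX1, which opens the haem ring, did not follow AKR1C1. Its brightest probe set, 11716939_a_at, read 7.49, 7.59 and 7.45 with T286A, 7.85, 7.83 and 7.97 with wild type, and 7.55 and 7.70 with empty vector. All wild-type arrays were above all others. The wild-type difference was 0.26 ± 0.087 (limma adjusted p = 0.296) and the T286A difference -0.11 ± 0.087 (adjusted p = 0.75). The other HMOX1 probe sets were dimmer and more scattered, with array values of 5.10 to 6.07, and differed from empty vector by between -0.25 and 0.10.

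GCLM, the modifier subunit of the enzyme that starts glutathione synthesis, had no called difference. The probe set 11723490_at read 10.64, 10.52 and 10.60 with T286A, 10.61, 10.60 and 10.59 with wild type, and 10.65 and 10.66 with empty vector. Although both constructs lay below both controls, the differences were only -0.07 ± 0.073 for T286A and -0.06 ± 0.073 for wild type. The dimmer 11723489_at differed in the other direction, by 0.20 ± 0.10 for T286A and 0.08 ± 0.10 for wild type (limma adjusted p = 0.56 and 0.834). GCLM thus has no common direction over its probe sets.

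TXNRD1, which reduces thioredoxin with NADPH, differed little. The probe set 11715649_s_at read 11.15, 11.25 and 11.23 with T286A, 11.19, 11.13 and 10.99 with wild type, and 11.04 and 11.12 with empty vector. T286A lay above both controls by 0.13 ± 0.087 and wild type overlapped them at 0.02 ± 0.087 (limma adjusted p = 0.692 and 0.957). The other TXNRD1 probe sets differed by 0.10 and 0.14 with T286A and by 0.14 and -0.05 with wild type. SRXN1, which restores over-oxidised peroxiredoxins, read 8.58, 8.39 and 8.47 with T286A, 8.40, 8.31 and 8.28 with wild type, and 8.45 and 8.43 with empty vector. Its differences were 0.04 ± 0.083 and -0.11 ± 0.083 (limma adjusted p = 0.938 for T286A and 0.702 for wild type).

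**Figure D2:**
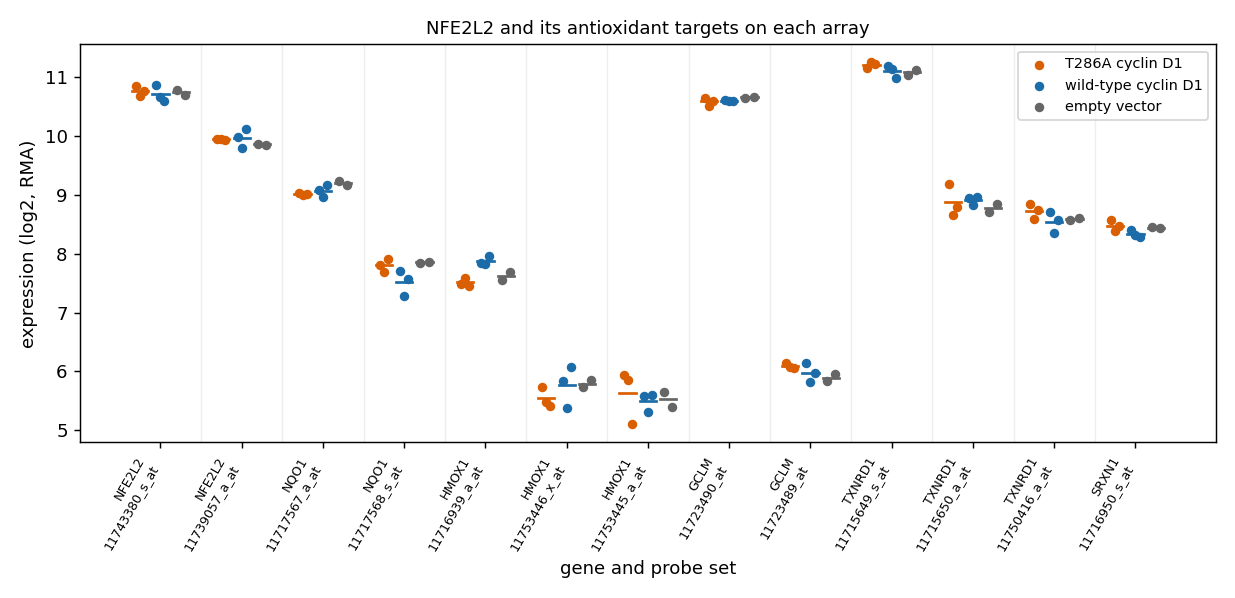
Expression (log2, RMA) of NFE2L2 and 5 NRF2 target genes on each array, with points for arrays and bars for group means. In most probe sets the 3 groups lie close to each other, and HMOX1 11716939_a_at is highest with wild type, at 7.83 to 7.97.

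T286A set directly against wild type does not use the empty vector arrays for its difference and was tested for all members. The choice of AKR1C1 did use the wild-type and T286A arrays, so its p-values here are a description and no independent support. Limma called 0.526% of all probe sets and 0 of the 22 member probe sets. Before adjustment, limma's p was under 0.05 for 3 higher and 2 lower members in T286A cells. The higher ones include both AKR1C1 probe sets, which are not independent. In the fit at 1 probe set a gene, the shares of all genes were 7.16% higher and 6.46% lower. The shared AKR1C1/AKR1C2 probe set, chosen for its separation of the groups, was not tested. It was 0.80 ± 0.098 (log2, SE) higher with T286A than with wild type, or 1.74-fold, with all 3 T286A arrays above all 3 wild-type arrays. The probe sets of AKR1C1 alone were 0.37 ± 0.14 and 0.56 ± 0.16 higher with T286A, but neither was called (limma adjusted p = 0.348 and 0.226). Without wild-type replicate 2 these differences were 0.48 and 0.39.

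HMOX1 had the smallest p among the members. Its brightest probe set was 0.37 ± 0.078 lower with T286A than with wild type (95% interval -0.55 to -0.19), with no overlap between arrays and a limma adjusted p of 0.114. It was called in 1 of 13 alternatives, the one with dim probe sets left out (limma adjusted p = 0.0462). In that fit 438 of all 24427 probe sets kept were called. The dimmer HMOX1 probe sets overlapped between these groups and differed in opposite directions. They were at -0.22 ± 0.16 for 11753446_x_at and 0.13 ± 0.21 for 11753445_a_at (limma adjusted p = 0.645 and 0.851). Among the rest, NQO1 11717568_s_at was 0.28 ± 0.11 higher with T286A (limma adjusted p = 0.388), and AKR1C2 11761114_x_at was 0.19 ± 0.069 lower (adjusted p = 0.35). Without wild-type replicate 2 the NQO1 difference was 0.16. Of the 22 probe sets, 1 was higher and 2 were lower with T286A without overlap, against 17.4% of all probe sets (8.88% higher and 8.55% lower).

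**Figure D3:**
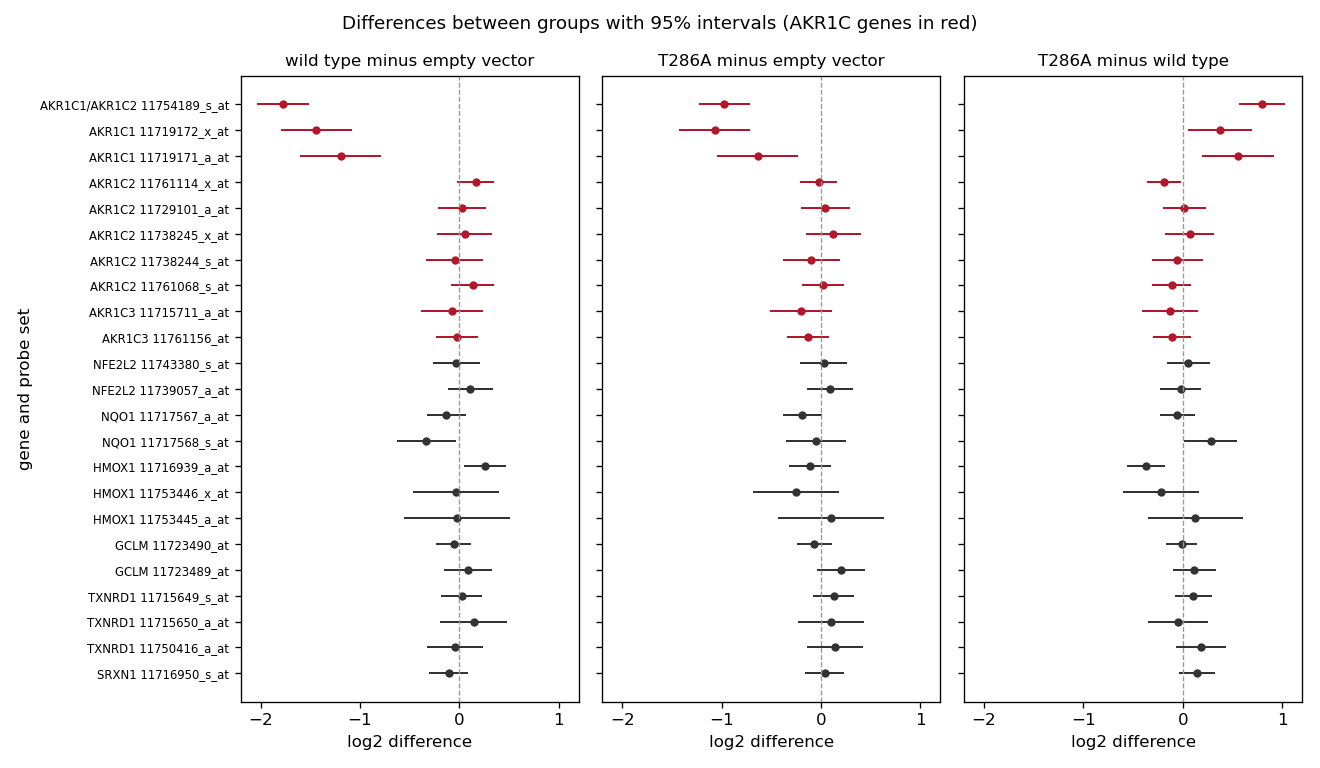
Log2 differences with 95% intervals for the 22 member probe sets and the shared AKR1C1/AKR1C2 probe set in 3 comparisons, AKR1C genes in red. The 2 AKR1C1 probe sets and the shared one lie well below 0 against empty vector with wild type (-1.19 to -1.77), and the other genes lie between -0.33 and 0.26.

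The wider NRF2 and antioxidant system was followed with 8 gene lists of 79 genes, 73 of them measured, at 1 probe set a gene (the brightest of each). With wild type, limma called 1 of the 73 lower and 0 higher, against 1.74% of all 18231 genes (1.14% lower and 0.603% higher). Its p before adjustment was under 0.05 for 1 higher gene (1.37%) and 6 lower genes (8.22%), against 6.08% and 7.42% of all genes. The list median was -0.02 and that of all genes 0.0016. With T286A limma called 0 of the 73, against 0.532% of all genes. Its p before adjustment was under 0.05 for 0 higher genes (against 5.95% of all genes) and 5 lower genes (6.85%, against 6.15%). Of 73 differences 53 were negative, against 9281 of 18231 over all genes, and the median was -0.03, against -0.0030. In T286A against wild type limma called 0, against 0.987% of all genes, and its unadjusted p was under 0.05 for 4 higher genes (5.48%, against 7.16% of all genes) and 5 lower genes (6.85%, against 6.46%).

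The single call was TXNIP, an inhibitor of thioredoxin whose transcription follows glucose supply. TXNIP read 8.68, 8.57 and 8.49 with T286A, 8.19, 8.35 and 8.11 with wild type, and 8.94 and 8.94 with empty vector. It fell by 0.73 ± 0.091 with wild type (limma adjusted p = 0.0109), while the T286A difference was -0.36 ± 0.091 (adjusted p = 0.143). The T286A mean lay between those of the other groups, as with AKR1C1, whose T286A and wild-type arrays overlapped on its brighter probe set. The call was lost without empty vector replicate 1 or 2 (limma adjusted p = 0.0997 and 0.109) and with the replicate number as a block (0.0513), while the difference stayed between -0.79 and -0.65 under the alternatives run.

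Over all genes limma called 1.74% with wild type, 0.532% with T286A and 0.987% in T286A against wild type. Its unadjusted p was under 0.05 for 6.08% higher and 7.42% lower with wild type, and for 5.95% and 6.15% with T286A. Among NRF2 regulators, 0 of 10 measured genes were called by limma in any comparison. Unadjusted, 1 had a p under 0.05 with wild type and 0 with T286A. MAFG, a small MAF partner, had the smallest p, at -0.39 ± 0.11 with wild type (limma adjusted p = 0.139), and MAFF the smallest with T286A, at -0.20 ± 0.11. Of 17 measured genes of glutathione synthesis and use, 0 were called by limma; unadjusted, 1 had a p under 0.05 with wild type and 0 with T286A. SLC7A11, the cystine transporter, was at 0.21 ± 0.093 with T286A and -0.23 ± 0.093 with wild type. T286A minus wild type was 0.44 ± 0.083 for this gene (limma adjusted p = 0.0595).

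Over all genes limma called 1.74% with wild type and 0.532% with T286A. The shares lower at an unadjusted p under 0.05 were 7.42% and 6.15%. Of 12 thioredoxin and peroxiredoxin genes, TXNIP was called with wild type and none with T286A. With T286A limma's unadjusted p was under 0.05 for 3, all lower (25%, against 6.15% of all genes). Besides TXNIP they were the glutaredoxin GLRX (-0.27 ± 0.080) and, named after its values were seen, the peroxiredoxin PRDX4 (-0.22 ± 0.068), with adjusted p of 0.202 and 0.227. Of 5 NADPH-supplying enzymes limma called 0, and the 1 with an unadjusted p under 0.05 was IDH1 with wild type, at -0.34 ± 0.077 (adjusted p = 0.0804). The iron and haem genes gave 0 calls of 6 by limma, and the 1 with an unadjusted p under 0.05 against empty vector was the ferritin light chain FTL, at -0.15 ± 0.062 with wild type. EPHX1, an epoxide hydrolase, was the 1 of 11 other target enzymes with an unadjusted limma p under 0.05 against empty vector, at -0.39 ± 0.11 with T286A and -0.43 ± 0.11 with wild type (limma adjusted p = 0.157 and 0.102), at levels of only 3.79 to 4.43.

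Over all genes limma's unadjusted p was under 0.05 for 6.08% higher with wild type and 6.15% lower with T286A. Of 7 measured aldo-keto reductase relatives, 0 were called by limma in any comparison. Unadjusted, its p was under 0.05 for 1, higher, with wild type and 0 with T286A. With T286A 3 differences were positive and 4 negative, and with wild type 6 were positive and 1 negative. Group means of 5 of the 7, AKR1C4, AKR1B10, AKR1B15, AKR1D1 and AKR7A3, lay between 3.93 and 4.55, where a lower level had little room to be read. AKR1C4, the liver member of the family, read 4.10 on average with T286A, 4.24 with wild type and 3.93 with empty vector, a wild-type difference of 0.32 ± 0.10 (limma adjusted p = 0.21) at a low level. AKR7A2, which reduces aldehydes, was at 0.16 ± 0.072 with wild type. Of 5 superoxide and peroxide enzymes limma called 0, and the 1 with an unadjusted p under 0.05 was catalase, CAT, with T286A, at -0.27 ± 0.10 (adjusted p = 0.325).

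**Figure D4:**
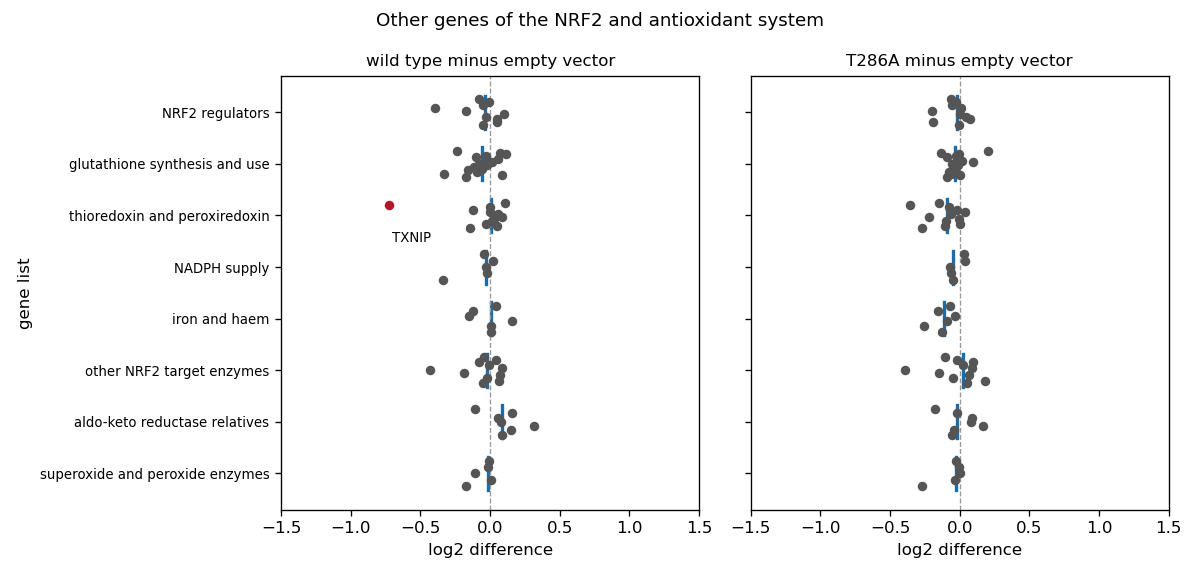
Log2 differences from empty vector of 73 genes in 8 lists (points; blue bars are list medians; red marks a gene called by limma). TXNIP with wild type, at -0.73, is the single called gene, and most other genes lie close to 0.

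Genes with a profile close to that of AKR1C1 were looked for over the whole array, as a description, since the profile holds the fall for which AKR1C1 was chosen. Likeness was the root-mean-square difference between log2 profiles over the 8 arrays, each taken minus its own mean, using the brightest AKR1C1 probe set, and it mostly reflects the differences between the 3 groups. The closest profile was that of the chemokine receptor CCR9, at 0.20, followed by LRRN3 at 0.23, the pentraxin PTX3 at 0.24, the interleukin subunit IL12B at 0.24, FRMD4A at 0.25 and the growth hormone receptor GHR at 0.25. In all 6 the mean was lowest with wild type, intermediate with T286A and highest with empty vector, an order that the choice by likeness to AKR1C1 favours. CCR9, for example, averaged 6.69 with T286A, 6.11 with wild type and 7.67 with empty vector. Among the members, AKR1C3 was the closest at 0.54, with 12.2% of genes closer to AKR1C1, followed by NQO1 (0.55, 15.1%), SRXN1 (0.56, 20.2%) and GCLM (0.56, 22%). NFE2L2 was at 0.59 with 38.1% of genes closer, TXNRD1 at 0.61 with 54.8%, AKR1C2 at 0.65 with 81.3% and HMOX1 at 0.68 with 90.8%. A rank among genes that differ little between the groups does not show that a member followed AKR1C1. The AKR1C3 probe set, 11715711_a_at, was dim, and its mean was lowest with T286A (4.32, against 4.45 with wild type). Its empty vector arrays read 4.30 and 4.74.

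**Figure D5:**
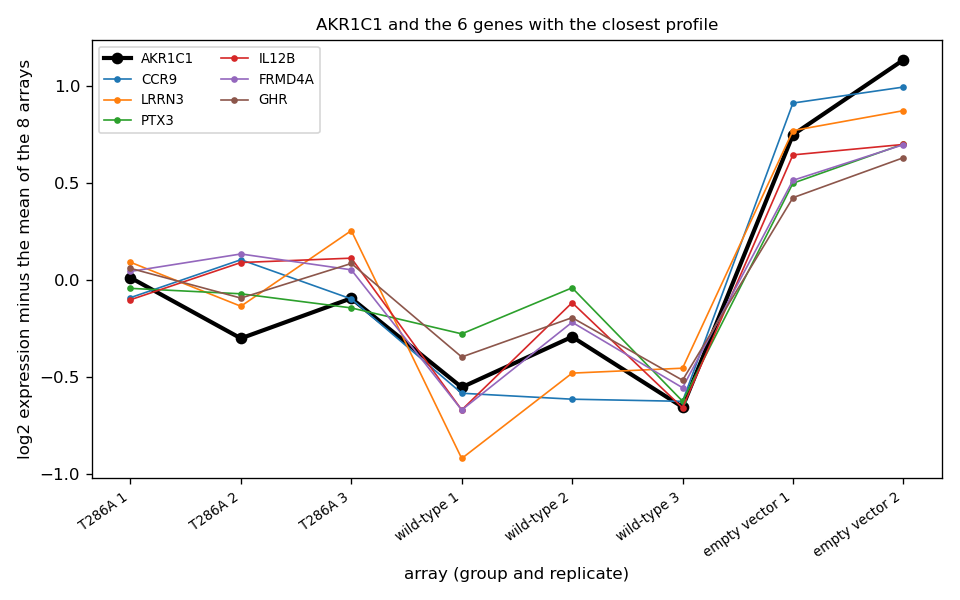
Log2 expression minus its mean over the 8 arrays for AKR1C1 (11719172_x_at, black) and the 6 genes with the closest profile, by array. All 7 profiles are highest on the 2 empty vector arrays, which the choice by likeness to AKR1C1 favours.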

How the data were processed

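Per the submitters' processing notes, the authors made the deposited log2 expression values by RMA in R 3.5.0; other steps are not given in the sources used here. The table held 48864 probe sets, of which 10 control probe sets were left out. Probe sets were named through the platform annotation: 45220 had 1 gene, 1325 several and 2309 none. Groups came from the titles. 0 pairs of arrays were identical.

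Group means over all 8 arrays were estimated by lmFit and eBayes of limma 3.58.1 under R 4.3.3, over all 48854 probe sets, with 5 residual degrees of freedom, no intensity filter and two-sided p-values adjusted by Benjamini-Hochberg. AKR1C2 and AKR1C3 may share signal with AKR1C1, so their differences from empty vector, like those of AKR1C1, were not tested, nor was the shared AKR1C1/AKR1C2 probe set in any comparison. Gene lists used a second fit on the brightest probe set of each of 18231 genes, and from each list the called genes or those with the smallest p were named. The fit was tested on simulated data. Members and lists were chosen with earlier results of these data known. Alternatives were leaving out each array, a replicate block, a filter on dim probe sets, housekeeping centring, a trended robust eBayes, and other gene summaries. The arrays carry no detection call, and their number limits the precision.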

Additional observations from a re-analysis of the deposited data

How the results depend on the processing

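None of the 13 tested member probe sets was called against empty vector under any of the 13 alternatives. The filter on dim probe sets and the fit at 1 probe set a gene left some of them out. The count of all probe sets called varied widely. For wild type against empty vector that count was 390, and 41 to 257 when an array was left out, 102 with the replicate block, 804 with dim probe sets left out and 1148 with a trended robust eBayes. For T286A against empty vector it was 62, and 1 to 30, 1, 608 and 997 in the same order, 36 with housekeeping centring and 97 at 1 probe set a gene. For T286A against wild type it was 257, and 90 to 165, 122, 438 and 840 in the same order. The cause was not tested. Leaving out probe sets with a mean under the median (5.57) kept 13 of 22 members and called 1, HMOX1, in T286A against wild type. This stood beside 438 calls among all 24427 probe sets kept, and no other alternative called a member. AKR1C1 11719171_a_at was left out there. Housekeeping centring shifted the share of lower calls to 52.8% from 35.5% with T286A, to 62.3% from 68.7% with wild type and to 49.2% from 37% in T286A against wild type, and the largest shift of the median of all probe sets was -0.0434.

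With an array left out, the AKR1C1 differences ran from -1.63 to -1.25 and -1.33 to -1.03 with wild type, and from -1.26 to -0.88 and -0.71 to -0.53 with T286A. With the replicate block they were -1.41 and -1.25 with wild type and -1.04 and -0.69 with T286A. The shared AKR1C1/AKR1C2 probe set in T286A against wild type ran from 0.74 to 0.87 with an array left out and was 0.80 with the replicate block. The single list call, TXNIP, ranged from 0 to 1 with an array left out and was 0 with the replicate block. Averaging all probe sets of a gene gave 3 list calls in T286A against wild type, TXNIP (0.44), SLC7A11 (0.45) and PRDX4 (-0.30). The share of all genes called with that averaging is not given here, so these calls cannot be set against it. Same-numbered wild-type and T286A arrays deviated together only weakly (r = 0.03, 0.12 and 0.01). A differently numbered pair, wild-type replicate 3 with T286A replicate 1, also reached 0.12. With so few arrays, these values cannot tell whether the numbers pair the samples. Small uncalled differences changed sign in 45 cases, of which 15 concerned AKR1C probe sets against empty vector.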
